A study of Mus musculus with 12 samples.

Results

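The genes described here form the growth hormone and insulin-like growth factor 1 (IGF1) axis of the mouse mammary fat pad. They are the growth hormone receptor gene Ghr, the hormone gene Igf1, its receptor gene Igf1r, and the genes of 6 IGF binding proteins, Igfbp2 to Igfbp7. They were chosen by name, which makes 9 of the 55487 genes listed, and all 9 were among the 18647 genes that passed the filter on low counts. RNA was sequenced from 12 right thoracic mammary fat pads of female C57BL/6 mice, an inbred laboratory strain, collected at postnatal day 84. Per the labels, folic acid was given at 5 mg/kg for 6 of the pads and at 1 mg/kg for the other 6, and its supplementation ended 4 weeks before collection. They do not say whether the dose is per kg of diet or of body weight. No unsupplemented group was analysed here, no genotype other than the strain is given, and the pads were frozen whole, so fat, stroma, ducts, vessels and any lymph node entered the same RNA. Folic acid is the folate of supplements and fortified food, a vitamin that cells need to make nucleotides and to methylate DNA. The question was whether intake before and around puberty left a difference in these genes' RNA in the adult gland.

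Growth hormone, released by the pituitary, binds its receptor on the cell surface, which signals through the kinase JAK2 to the transcription factor STAT5. Igf1 is a main target of that signal in liver and in fat, and in the rodent mammary fat pad IGF1 made by the stroma drives the growth of ducts. IGF binding proteins hold IGF1 and IGF2 outside the cell, prolong their stay in blood or keep them from the IGF1 receptor. IGFBP3 and IGFBP5 form a larger complex with the acid-labile subunit encoded by Igfals, IGFBP6 prefers IGF2, and IGFBP7 binds IGFs only weakly.

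Libraries held 48.2 to 75.3 M gene-assigned reads, where M stands for mega, on average 60.0 ± 8.35 M in the 5 mg/kg pads and 60.4 ± 7.70 M in the 1 mg/kg pads (SD, n = 6 per dose). The mitochondrial rRNA genes took from 39.2% to 59.5% of those reads. The labels do not state that libraries of a group came from separate animals, so each p measures the spread between these samples, which may be technical. Every member of the fat, stroma, endothelium, epithelium, B cell, macrophage and skeletal muscle marker lists was detected, among them the epithelial keratin Krt8 at 20.7 to 109 CPM (CPM, a gene's reads relative to the TMM-scaled library total). The libraries differed most in lymph node B cell markers. With a level defined as the mean log2 CPM of a list's markers, 5 libraries lay between -1.26 and -0.019 and the other 7 between 3.48 and 6.40. The 5 were replicates 4, 5 and 6 at 5 mg/kg and replicates 2 and 4 at 1 mg/kg, where a replicate number only names a library. Reads assigned to no gene feature had a median share of 12.2% over the libraries. The share was highest in replicate 6 at 1 mg/kg, at 26.6%, the library with the fewest gene-assigned reads. Replicate 6 at 5 mg/kg had 20.8%.

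Promoter sequences are given for 4 genes whose RNA behaved differently over the libraries: Ghr, the gene with the closest relation to fat, Igfbp6 and Igfbp4, the binding protein genes with the widest and the narrowest range, and Igfbp3, the gene whose levels ran opposite to Ghr. Each is the 250 bases before a RefSeq transcription start on GRCm38.p6, read 5′ to 3′ on the gene's strand. Ghr has 2 starts in the table and the window shown belongs to the second, at chr15:3581843-3582092 on the minus strand. Igfbp6 lies at chr15:102143936-102144185 on the plus strand, Igfbp4 at chr11:99040994-99041243 on the plus strand and Igfbp3 at chr11:7213924-7214173 on the minus strand. Capitals mark a TATAAA or CCAAT match on either strand, so TTTATA and ATTGG are matches on the opposite strand.
Ghr: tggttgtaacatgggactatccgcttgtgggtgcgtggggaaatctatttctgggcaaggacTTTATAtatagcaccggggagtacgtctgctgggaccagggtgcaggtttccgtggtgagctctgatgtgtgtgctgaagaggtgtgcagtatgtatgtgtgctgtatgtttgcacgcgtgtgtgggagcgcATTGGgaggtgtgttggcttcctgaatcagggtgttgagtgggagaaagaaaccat
Igfbp6: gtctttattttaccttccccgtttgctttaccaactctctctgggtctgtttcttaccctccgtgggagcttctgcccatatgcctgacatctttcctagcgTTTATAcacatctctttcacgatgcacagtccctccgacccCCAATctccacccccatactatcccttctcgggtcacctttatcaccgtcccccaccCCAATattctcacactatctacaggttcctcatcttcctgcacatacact
Igfbp4: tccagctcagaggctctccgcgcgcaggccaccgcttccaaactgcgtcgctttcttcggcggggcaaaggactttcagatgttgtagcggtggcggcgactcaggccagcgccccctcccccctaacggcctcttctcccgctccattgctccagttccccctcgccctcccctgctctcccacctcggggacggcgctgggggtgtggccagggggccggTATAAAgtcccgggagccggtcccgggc
Igfbp3: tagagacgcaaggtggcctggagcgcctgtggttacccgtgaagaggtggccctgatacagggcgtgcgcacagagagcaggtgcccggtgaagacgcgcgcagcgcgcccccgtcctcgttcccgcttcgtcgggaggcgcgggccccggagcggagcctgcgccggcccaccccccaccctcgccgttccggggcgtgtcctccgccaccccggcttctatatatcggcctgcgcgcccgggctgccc

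The printed Ghr and Igfbp6 windows lay near the median base composition of all windows, and those of Igfbp4 and Igfbp3 were GC-rich. The Ghr window had 52.0% GC and 8 CpG, while that of the first Ghr start, not printed, had 65.6% GC and 17 CpG, and the Igfbp6 window 49.6% GC and 7 CpG. The Igfbp4 window had 69.2% GC and 22 CpG, and the Igfbp3 window 73.2% GC and 32 CpG, against medians of 52.4% GC and 6 CpG over 32851 windows. TATAAA stood 28 bases before the start in Igfbp4, the place where a TATA box usually lies, but 188 bases before it in Ghr and 148 in Igfbp6. Only these exact letters were searched, so variants are not marked. The letters tatatat near the end of the Igfbp3 window are such a variant. At least 1 TATAAA is found in 12.4% of all windows of this length and CCAAT in 33.8%, so single matches are common. The palindrome TTCNNNGAA, the core bound by STAT5, matched in none of the windows of the 9 genes and is present in 7.02% of all windows. The letters TTGCNNAA, a core bound by C/EBP factors, likewise matched in none, with 9.56% of all windows. Some windows not printed overlap annotated exons of their own gene, so they are not upstream sequence only. That of Igf1 does so over all 250 bases, the first of Ghr over 140, the second of Igfbp2 over 65 and that of Igfbp5 over 19. GGGCGG, the GC box, occurred 4 times in Igfbp7, 3 times in Igfbp2, 2 times in Igf1r and 2 times before the first Ghr start, and in 32.7% of all windows. These searches covered both strands, and no GGGCGG lay in the 4 windows printed.

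On a scale that allows genes to be compared, CPM per kilobase of exon, the binding protein genes Igfbp7 and Igfbp5 stood highest and Igfbp2 lowest. Igfbp7 averaged 86.8 ± 10.7 CPM per kilobase over the 12 libraries (SD) and Igfbp5 57.6 ± 19.1. Ghr averaged 33.6 ± 12.8, Igfbp6 31.9 ± 13.7, Igfbp4 20.8 ± 2.73, Igf1 12.2 ± 3.28 and Igfbp3 8.68 ± 2.14. The IGF1 receptor gene, at 1.89 ± 0.454, and Igfbp2, at 0.935 ± 0.300, were the least abundant. The ranges of neighbours in this order overlapped, except those of Igfbp3, from 4.25 to 11.0, and Igf1r, from 1.22 to 2.76. Within a library the order was steadier: Igfbp5 lay above Ghr, Igfbp4 above Igf1, and Igf1r above Igfbp2 in all 12, and Igfbp7 lay above Igfbp5 in 11. Ghr lay above Igfbp6 in only 7, so these neighbours were not ordered. RNA of the growth hormone gene itself was nearly absent, with 49 reads over all 12 libraries, and Igfbp1, a liver binding protein, had 2.

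**Figure D1:**
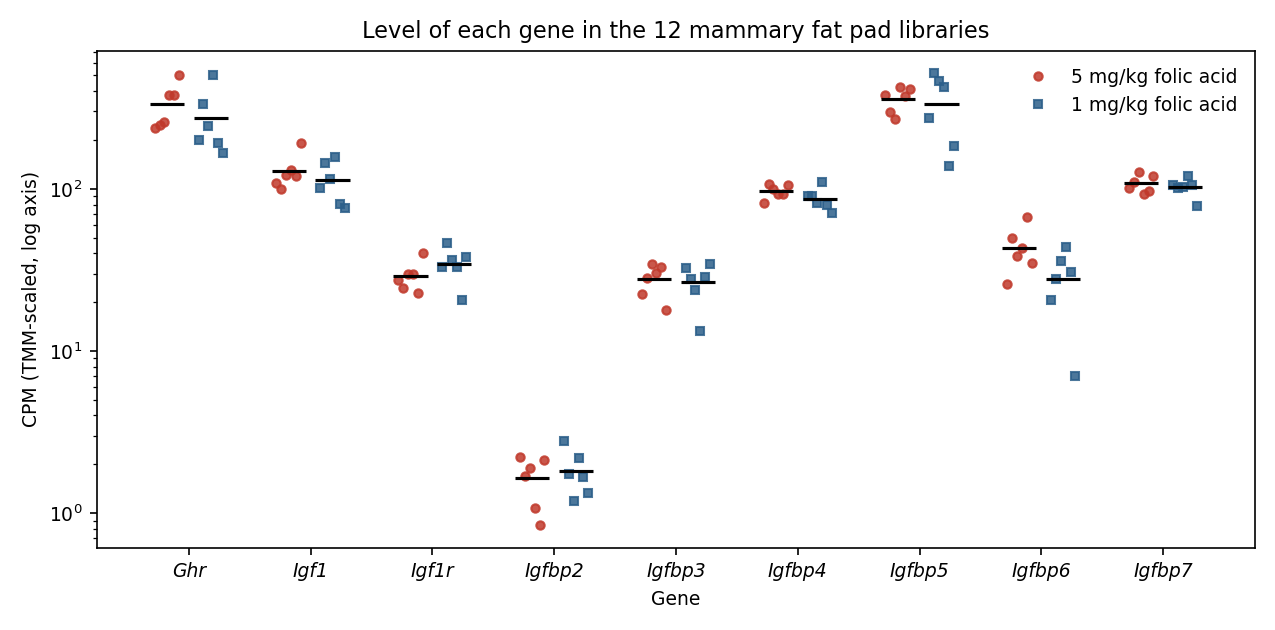
CPM on a log axis for the 9 genes, with each point a library, circles for 5 mg/kg and squares for 1 mg/kg, and horizontal lines at the group means. The groups overlapped for every gene, and Igfbp6 had the widest range, from 6.96 to 67.5 CPM.

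Ghr was abundant in every pad and varied 3.02-fold between libraries. Its gene spans chr15:3317760-3583492 on the minus strand (GRCm38), and it encodes the receptor through which growth hormone acts on fat and stromal cells. Its lowest, median and highest values were 238, 320.0 and 503 CPM in the 5 mg/kg libraries, against 167, 222 and 503 CPM in the 1 mg/kg libraries. The groups overlapped over most of their range: the highest libraries of both were almost equal, and the lowest of all were replicates 6, 5 and 1 at 1 mg/kg. Means were 335 ± 105 CPM in the 5 mg/kg pads and 273 ± 127 CPM in the 1 mg/kg pads (SD, n = 6 per dose). The log2 fold change was 0.30 ± 0.30 (SE), with a 95% interval of -0.35 to 0.94 and an adjusted p of 0.943 by edgeR's quasi-likelihood test. Leaving out each library in turn gave 0.14 (without replicate 6 at 5 mg/kg) to 0.56 (without replicate 4 at 1 mg/kg, unadjusted p = 0.0458, adjusted p = 0.638). The estimate turned to -0.084 with the fat level as a covariate and to -0.16 with the stroma level, and neither passed.

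Igf1, the hormone gene, gave the same picture with a smaller spread. It lies at chr10:87858265-87937042 on the plus strand. Its lowest, median and highest values were 100.4, 121 and 191 CPM at 5 mg/kg, against 75.7, 108 and 158 CPM at 1 mg/kg. Replicate 6 at 5 mg/kg stood above the other 5 of its group, which ended at 131 CPM, and replicates 5 and 6 at 1 mg/kg were the lowest of all. The log2 fold change was 0.19 ± 0.22 (SE, interval -0.28 to 0.66, adjusted p = 0.943 by edgeR). Single omissions of the same libraries gave 0.045 and 0.31 as its lowest and highest. With the fat or stroma level as a covariate it was -0.046 or -0.17, and it did not pass.

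Igf1r, at chr7:67952827-68233668 on the plus strand, encodes the receptor tyrosine kinase that IGF1 activates. It ran from 22.7 through a median of 28.5 to 40.1 CPM at 5 mg/kg, against 20.5, 34.9 and 46.3 CPM at 1 mg/kg. The groups overlapped, and the lowest library of all belonged to the 1 mg/kg group. The log2 fold change was -0.25 ± 0.19 (SE, interval -0.66 to 0.15, adjusted p = 0.943 by edgeR), and single omissions gave -0.37 (without replicate 6 at 5 mg/kg) to -0.13 (without replicate 2 at 1 mg/kg).

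Among the binding proteins, Igfbp6 had the largest estimate and the widest spread. Its gene lies at chr15:102144362-102149511 on the plus strand. Its lowest, median and highest values were 25.8, 40.8 and 67.5 CPM at 5 mg/kg, against 6.96, 29.4 and 43.9 CPM at 1 mg/kg. Replicate 6 at 1 mg/kg lay far below all others, and 4 of the 6 libraries at 5 mg/kg fell within the range of the 1 mg/kg group. That replicate 6 also had the fewest gene-assigned reads and the highest share of reads on no gene feature. Their part in its value was not tested. Means were 43.2 ± 14.3 CPM in the 5 mg/kg pads and 27.7 ± 12.8 CPM in the 1 mg/kg pads (SD, n = 6 per dose). The log2 fold change was 0.64 ± 0.36 (SE). Its interval ran from -0.13 to 1.42, with an unadjusted p of 0.0971 and an adjusted p of 0.943 by edgeR. Leaving out each library in turn gave 0.44 (without replicate 6 at 1 mg/kg) to 0.82 (without replicate 4 at 1 mg/kg). With the fat or stroma level as a covariate it was 0.24 or 0.19, and none of these fits passed.

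Igfbp5, at chr1:72857932-72874884 on the minus strand, encodes a binding protein that attaches to extracellular matrix and is known from the involuting mouse mammary gland. Its lowest, median and highest values were 271, 376 and 422 CPM at 5 mg/kg, against 137, 350.4 and 515 CPM at 1 mg/kg. The 1 mg/kg group thus held both the lowest and the highest libraries, replicates 5 and 2. The log2 fold change was 0.10 ± 0.31 (SE, interval -0.56 to 0.77, adjusted p = 0.955 by edgeR). Igfbp2, its neighbour at chr1:72824503-72852474 on the plus strand, is a binding protein also made by fat cell precursors. It was low, from 0.842 through 1.80 to 2.20 CPM at 5 mg/kg, against 1.19, 1.71 and 2.78 CPM at 1 mg/kg. As few as 38 reads lay behind a library's value, and the log2 fold change was -0.15 ± 0.28 (SE, interval -0.76 to 0.46). The 2 genes point toward each other with 5457 bases between them, and their levels did not move together over the 12 libraries, with a Pearson r of -0.078.

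Igfbp3, Igfbp4 and Igfbp7 also had estimates close to 0. Igfbp3, at chr11:7206086-7213923 on the minus strand, encodes the main IGF carrier of blood. It ran from 17.9 through 29.1 to 34.5 CPM at 5 mg/kg, against 13.3, 28.1 and 34.5 CPM at 1 mg/kg. The group ranges nearly coincided, and the log2 fold change was 0.051 ± 0.22 (SE, interval -0.43 to 0.53). Igfbp4, at chr11:99041244-99054392 on the plus strand, encodes a binding protein that blocks IGF action until the protease PAPP-A cuts it. Its values were 81.6, 96.3 and 108 CPM at 5 mg/kg, against 71.2, 85.7 and 110 CPM at 1 mg/kg. The highest library belonged to the 1 mg/kg group although 5 of its 6 lay below the 5 mg/kg median, and the log2 fold change was 0.15 ± 0.12 (SE, interval -0.11 to 0.41). Igfbp7, at chr5:77349240-77408041 on the minus strand, encodes a secreted protein of vessels and stroma. It ran from 92.7 through 106 to 126 CPM at 5 mg/kg, against 78.7, 104 and 119 CPM at 1 mg/kg, with a log2 fold change of 0.079 ± 0.12 (SE, interval -0.19 to 0.34). It shares 85 exon bases, 7.03% of its exon length, with Polr2b on the opposite strand, and the kit does not mark strand, so reads there cannot be assigned between them.

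None of the 9 genes passed the test between doses. The background in that comparison was 0.00% called, 0 of 18647 genes at an adjusted p under 0.05 by edgeR, with 359 at an unadjusted p under 0.05. DESeq2 called 1 gene, which was not a member, and limma-voom 0. The estimates were higher at 5 mg/kg for 7 members and lower for 2, with a median log2 fold change of 0.10 against -0.018 over all genes. Under scaling by library size alone Igfbp3 and Igfbp7 turned lower, and the median of all genes itself moved to -0.16. The groups overlapped for all 9 members, and non-overlapping groups were found for 0.0429% of genes tested. The intervals still allow sizeable differences: for Ghr and Igfbp5 they reach 0.94 and 0.77 on the log2 scale.

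**Figure D2:**
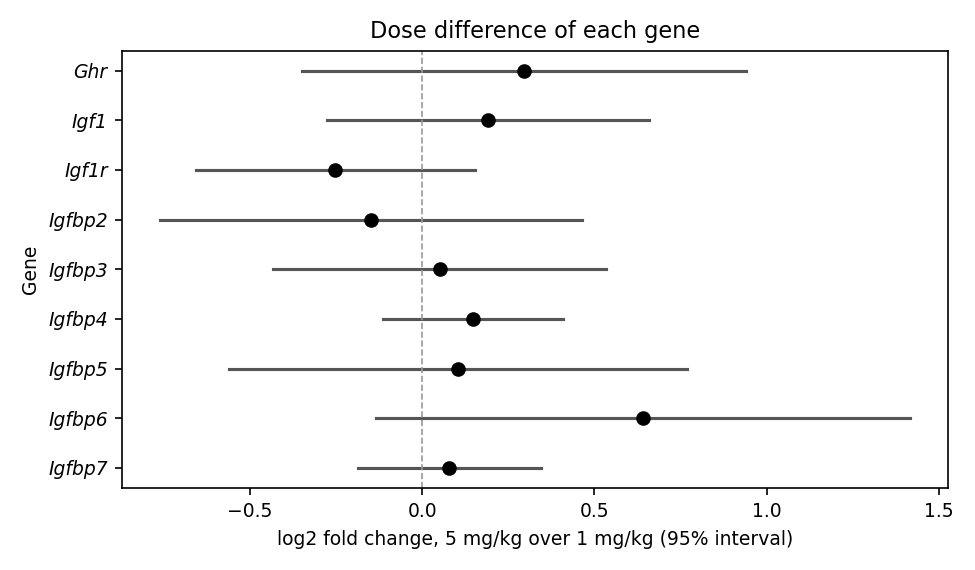
Log2 fold change of each gene, 5 mg/kg over 1 mg/kg (point), with its 95% interval (line), from edgeR. Every interval crosses 0, and the Igfbp6 estimate of 0.64 lies farthest from it; Igfbp3 and Igfbp7 turn below 0 when libraries are scaled by size alone.

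Fat and stroma content varied between the pads and set the frame for the next comparison. The fat level, from 20 adipocyte markers such as Adipoq and Plin1, was 8.14 ± 0.350 in the 5 mg/kg pads and 7.62 ± 0.662 in the 1 mg/kg pads (mean log2 CPM ± SD, n = 6 per dose). The stroma level, from 20 collagen, matrix and fibroblast markers such as Col1a1 and Dcn, was 6.82 ± 0.219 in the 5 mg/kg pads and 6.33 ± 0.575 in the 1 mg/kg pads. The fat markers summed to 10170 to 16670 CPM in the 5 mg/kg pads, against 5132 to 18730 CPM in the 1 mg/kg pads. The stroma markers summed to 4164 to 7716 CPM in the 5 mg/kg pads, against 2210 to 6436 CPM in the 1 mg/kg pads. Replicates 5 and 6 at 1 mg/kg had the lowest stroma levels, 5.82 and 5.49, and replicate 6 had the lowest fat level, 6.78. Both levels moved together, with a Pearson r of 0.839 over the 12 libraries. In bulk RNA, fewer cells of a type and less RNA per cell cannot be told apart.

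Ghr, Igf1, Igfbp5 and Igfbp6 rose with the fat level, and the other 5 genes did not pass. Slopes are log2 units of the gene per log2 unit of the level, from edgeR with dose as a term and adjustment over all 18647 genes. Ghr rose by 0.88 ± 0.15 (SE, interval 0.54 to 1.22, adjusted p = 0.00148). Igfbp6 rose by 0.94 ± 0.29 (adjusted p = 0.0242), Igfbp5 by 0.75 ± 0.26 (adjusted p = 0.0355) and Igf1 by 0.54 ± 0.16 (adjusted p = 0.0206). Igfbp3 had a slope of -0.45 ± 0.21 (adjusted p = 0.0987) and Igfbp4 of 0.20 ± 0.10 (adjusted p = 0.123). Igf1r, Igfbp2 and Igfbp7 had slopes of 0.047 ± 0.19, -0.12 ± 0.29 and 0.10 ± 0.12, and that of Igfbp2 turned positive under scaling by library size alone. Under that scaling none of the 4 passed, with adjusted p of 0.0777 for Ghr, 0.338 for Igf1, 0.491 for Igfbp5 and 0.506 for Igfbp6. Without the filter on low counts Igfbp5 and Igfbp6 did not pass (adjusted p = 0.105 and 0.102), and with the stroma level as a covariate none of the 4 did (0.155 to 0.873). A slope on fat was common: 40.3% of all genes were called, 17.0% rising and 23.3% falling, beside 4 of 9 members rising and 0 falling. The median slope of the members was 0.20, against 0.041 over all genes. Leaving out each library in turn, the Ghr slope stayed between 0.84 and 0.96 and passed in 12 of 12 fits. Igf1 passed in 10, and not without replicate 4 or 6 at 1 mg/kg (slopes 0.57 and 0.50). Igfbp6 passed in 10, and not without replicate 5 at 5 mg/kg or 6 at 1 mg/kg (0.89 and 0.57). Igfbp5 passed in 6, and not without replicate 2, 3 or 4 at 5 mg/kg or 1, 2 or 6 at 1 mg/kg. Igfbp3 fell with the fat level only without replicate 5 at 5 mg/kg or 2 at 1 mg/kg (-0.57 and -0.58).

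Along the stroma level Igf1, Ghr and Igfbp5 rose. Ghr rose by 1.02 ± 0.22 (SE, adjusted p = 0.0294), Igfbp5 by 1.09 ± 0.25 (adjusted p = 0.0355) and Igf1 by 0.78 ± 0.15 (adjusted p = 0.0236). Igfbp6 had a slope of 1.10 ± 0.38 (adjusted p = 0.0708), Igfbp4 of 0.32 ± 0.12 (adjusted p = 0.0734) and Igfbp3 of -0.60 ± 0.25 (adjusted p = 0.102). The Igfbp6 slope is as large as the others, with a wider error. The background was 10.7% of genes called, 5.75% rising and 4.95% falling, and the median slope was 0.32 for the members and 0.047 over all genes. This comparison rests on few libraries: leaving out each library in turn moved the number of called genes between 36 and 3155, and without replicates 5 and 6 at 1 mg/kg together it was 0. In the same single omissions Ghr and Igf1 passed in 7 of 12 fits, and not without replicate 1 at 5 mg/kg or 2, 4, 5 or 6 at 1 mg/kg, and Igfbp5 in 6, failing also without replicate 3 at 5 mg/kg. Igfbp6 passed without replicate 5 at 1 mg/kg, with a slope of 1.69. Without those 2 libraries the slopes were 1.79 ± 0.39 for Ghr, 1.04 ± 0.31 for Igf1 and 0.66 ± 0.45 for Igfbp5.

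**Figure D3:**
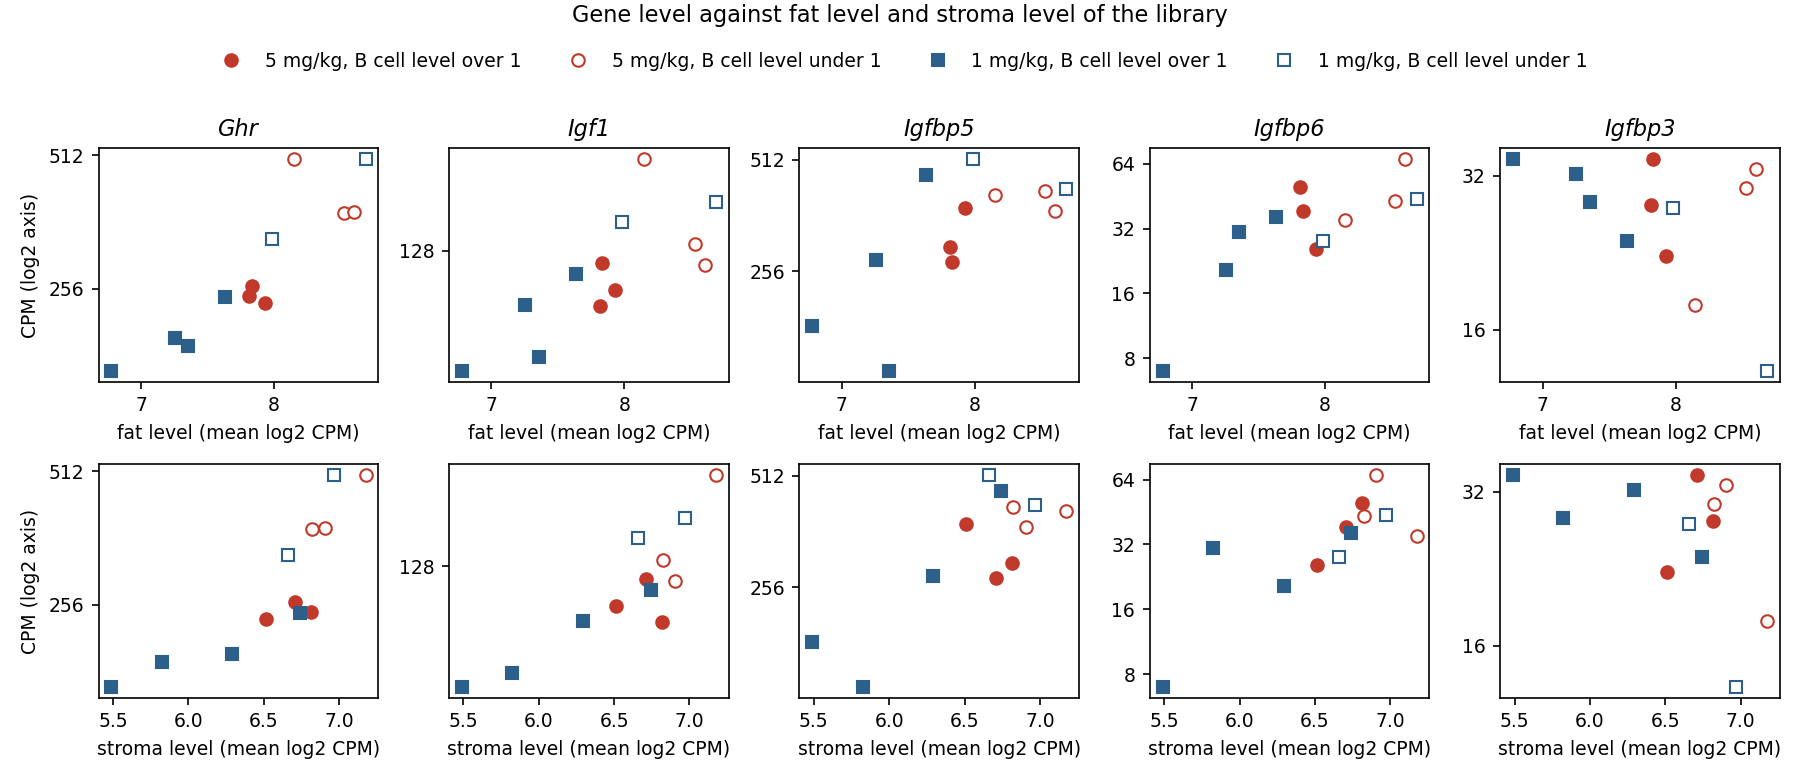
CPM (log2 axis) of 5 genes in each library against the fat level (top) and the stroma level (bottom), both as mean log2 CPM of 20 markers. Red circles are 5 mg/kg and blue squares 1 mg/kg, and open symbols are the 5 libraries with a B cell level under 1; Ghr is higher in all open symbols, 331 to 503 CPM, than in any filled symbol, 167 to 260 CPM.

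Over the 12 libraries the highest Pearson r was that of Ghr with fat, followed by Igf1 and then Ghr with stroma. Ghr had a Pearson r of 0.897 with the fat level (Spearman rho 0.909, permutation p = 0.0001, adjusted p = 0.00126 over 18 relations) and of 0.842 with the stroma level (rho 0.937, permutation p = 0.00032, adjusted p = 0.00192). Igf1 had r of 0.757 with fat (rho 0.818, permutation p = 0.00458, adjusted p = 0.0103) and 0.867 with stroma (rho 0.769, permutation p = 0.00014, adjusted p = 0.00126). Without the 2 libraries farthest from the median level, r was 0.836 and 0.851 for Ghr with fat and stroma, and 0.583 and 0.739 for Igf1. Igfbp4 had r of 0.806 with stroma (rho 0.804, permutation p = 0.00062, adjusted p = 0.00279), and r of 0.60 without those 2. Igfbp5 had r of 0.810 with stroma (rho 0.552, which did not pass, adjusted p = 0.12; for r, permutation p = 0.00375, adjusted p = 0.00964), but only 0.374 without replicates 5 and 6 at 1 mg/kg, so that relation rested on them. Igfbp6 had r of 0.803 with fat and 0.802 with stroma (permutation p = 0.001 and 0.00331, adjusted p = 0.0036 and 0.00964), and 0.686 and 0.682 without the farthest 2. Its rho was 0.65 with fat, which did not pass (permutation p = 0.0256, adjusted p = 0.0575), and 0.769 with stroma (permutation p = 0.0052, adjusted p = 0.0156). With fat, Igfbp5 had r of 0.689 and Igfbp4 of 0.673 (permutation p = 0.0126 and 0.0161, adjusted p = 0.0253 and 0.029), and neither rho passed. Igfbp3 had r of -0.474 with fat and -0.485 with stroma, and Igfbp7 of 0.375 and 0.6, and none of these passed. Igf1r and Igfbp2 had r between -0.216 and 0.114 with either level.

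Within the dose groups Ghr had nearly the same r with stroma at both doses, while Ghr and Igf1 had a lower r with fat in the 5 mg/kg pads. Ghr and stroma had r of 0.873 at 5 mg/kg and 0.856 at 1 mg/kg (exact permutation p = 0.0139 and 0.00833, n = 6 per dose, adjusted p = 0.250 and 0.0375). Ghr and fat had r of 0.684 at 5 mg/kg and 0.982 at 1 mg/kg (exact p = 0.169 and 0.00556, adjusted p = 0.436 and 0.0333). Igf1 and fat had r of 0.298 at 5 mg/kg and 0.921 at 1 mg/kg (exact p = 0.636 and 0.00556, adjusted p = 0.779 and 0.0333). For other members the fat r had opposite signs at 5 and 1 mg/kg, and none passed after adjustment. It was -0.852 and 0.295 for Igfbp2, -0.711 and 0.794 for Igfbp7, and -0.243 and 0.9 for Igfbp4. For Igfbp3 it was 0.191 and -0.91, and for Igf1r -0.12 and 0.154. Their r over all 12 libraries pools these signs. The 5 mg/kg libraries span a narrower range of fat, 7.82 to 8.60, than the 1 mg/kg libraries, 6.78 to 8.69. A test of the difference in slope between the doses called none of the 9 members, against a background of 0.00% for fat and 0.00% for stroma (edgeR, 1249 and 293 genes at an unadjusted p under 0.05). The difference in fat slope, 5 mg/kg minus 1 mg/kg, was farthest from 0 for Igfbp2, at -1.54 ± 0.63, with an adjusted p of 0.728.

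Ghr, Igf1 and Igfbp5 fell with the lymph node B cell level, and the other 6 members did not pass. Ghr ran from 331 to 503 CPM in the 5 libraries with a B cell level under 1 and from 167 to 260 CPM in the 7 above it, a boundary chosen after the levels were seen. The same 5 libraries had fat levels of 7.98 to 8.69 and the 7 had 6.78 to 7.93, and neither range overlapped the other. All 12 B cell markers were tested, none was at 0 in every library, and they summed to 10.4 to 832 CPM in the 5 mg/kg pads, against 8.35 to 1148 CPM in the 1 mg/kg pads. The macrophage level was also higher in the 7 libraries, 4.95 to 5.90 against 4.45 to 4.79 in the 5. On the B cell level Ghr fell by 0.14 ± 0.020 log2 units per log2 unit (adjusted p = 0.000162 by edgeR), Igf1 fell by 0.091 ± 0.020 (adjusted p = 0.00309) and Igfbp5 fell by 0.12 ± 0.034 (adjusted p = 0.0196; 0.0734 without replicate 2 at 1 mg/kg). The background was 38.9% called, 16.7% falling, beside 3 of 9 members falling and 0 rising. With the fat level as a covariate these B cell slopes did not pass either: Ghr had -0.096 (adjusted p = 0.084), Igf1 -0.086 (adjusted p = 0.146) and Igfbp5 -0.085 (adjusted p = 0.42). With the stroma level Ghr passed at -0.10 (adjusted p = 0.0228), while Igf1 and Igfbp5 had -0.047 each (adjusted p = 0.23 and 0.5). With the B cell level as a covariate no member passed on fat or stroma: the Ghr fat slope was 0.34 ± 0.22 (adjusted p = 0.363), the Igf1 fat slope 0.047 ± 0.25 (adjusted p = 0.920) and the Igfbp6 fat slope 1.79 ± 0.53 (adjusted p = 0.0863). Among only the 7 libraries with a B cell level over 1, Ghr had r of 0.939 with fat and 0.962 with stroma (exact permutation p = 0.0131 and 0.00198, adjusted p = 0.112 and 0.0357 over 18). Igf1 there had r of 0.799 with fat and 0.915 with stroma (exact permutation p = 0.05 and 0.0187, adjusted p = 0.118 and 0.112). These r have no dose term, and the B cell level still varied from 3.48 to 6.40. Fat and dose cannot be told apart in these 7, with fat levels of 7.81 to 7.93 at 5 mg/kg and 6.78 to 7.63 at 1 mg/kg.

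Igf1r was called on the epithelium level, and Ghr, Igf1, Igfbp5 and Igfbp3 on the endothelium level. Igf1r rose with the epithelium level, from 16 keratin and junction markers, by 0.33 ± 0.083 (SE, adjusted p = 0.0456 by edgeR), where 4.55% of genes were called. That call held in 4 of 12 single omissions, those of 5 mg/kg replicate 4 and 1 mg/kg replicates 3, 4 and 6, with slopes of 0.25 to 0.38 over the 12. Counting also the fits with the fat, stroma or B cell level as a covariate, it held in 5 of 15. On the endothelium level, from 14 markers, 30.9% of genes were called, 12.4% rising and 18.5% falling. Ghr rose by 2.43 ± 0.35 (adjusted p = 0.00248 by edgeR), Igf1 by 1.72 ± 0.29 (adjusted p = 0.00279) and Igfbp5 by 2.15 ± 0.63 (adjusted p = 0.0234, but not passing without replicate 2 or 5 at 1 mg/kg). Igfbp3 fell by 1.56 ± 0.48 (adjusted p = 0.0285), the only member to fall with a tissue other than the node. Its call was lost in 4 of 12 single omissions, those of 5 mg/kg replicate 6 and 1 mg/kg replicates 1, 4 and 6, and without that replicate 4 the slope was -0.99. The endothelium level itself correlated with fat at r of 0.821 and with the B cell level at r of -0.833. With the fat, stroma or B cell level as a covariate none of these 4 members passed on endothelium, and with the stroma or B cell level no gene at all did. On the skeletal muscle level, where 16.1% of genes were called and 6.04% fell, no member passed.

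**Figure D4:**
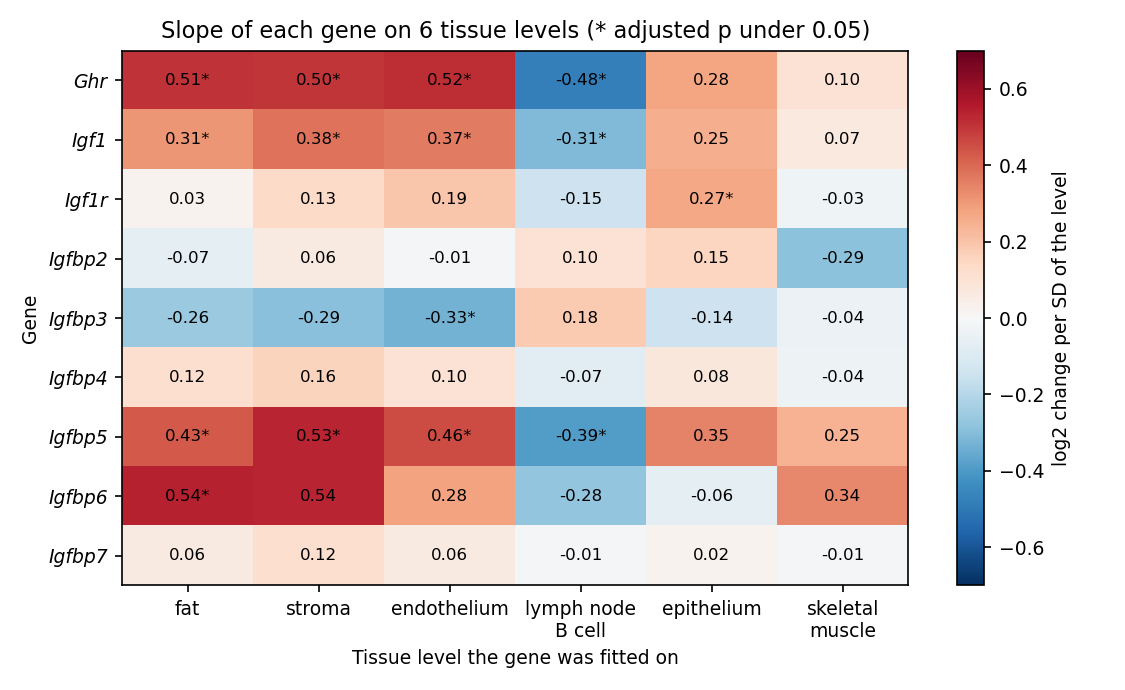
Slope of each gene on 6 tissue levels from edgeR with dose as a term, in log2 change per SD of the level over the 12 libraries; an asterisk marks an adjusted p under 0.05. Ghr, Igf1 and Igfbp5 carry asterisks on the fat, stroma, endothelium and B cell levels, while Igfbp2, Igfbp4 and Igfbp7 carry no asterisk.

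Between members, Ghr and Igf1 moved most closely together, but no longer did so after the dose and the B cell level were removed. Over the 12 libraries, as a description, Ghr and Igf1 had a Pearson r of 0.925 and Igf1 and Igfbp5 of 0.795. Igfbp4 and Igfbp7 had r of 0.758, Ghr and Igfbp4 of 0.717, and Igfbp4 and Igfbp6 of 0.692. Igfbp3 was negatively related to every other member, most to Ghr (-0.625) and Igf1 (-0.623). These pairs share libraries, scaling and tissue content. After the dose and the B cell level were removed, r was 0.695 for Ghr and Igf1, 0.818 for Ghr and Igfbp7, 0.820 for Igf1 and Igfbp7, and -0.735 for Ghr and Igfbp3. Ghr and Igfbp5 were at 0.020 there, against 0.707 before.

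**Figure D5:**
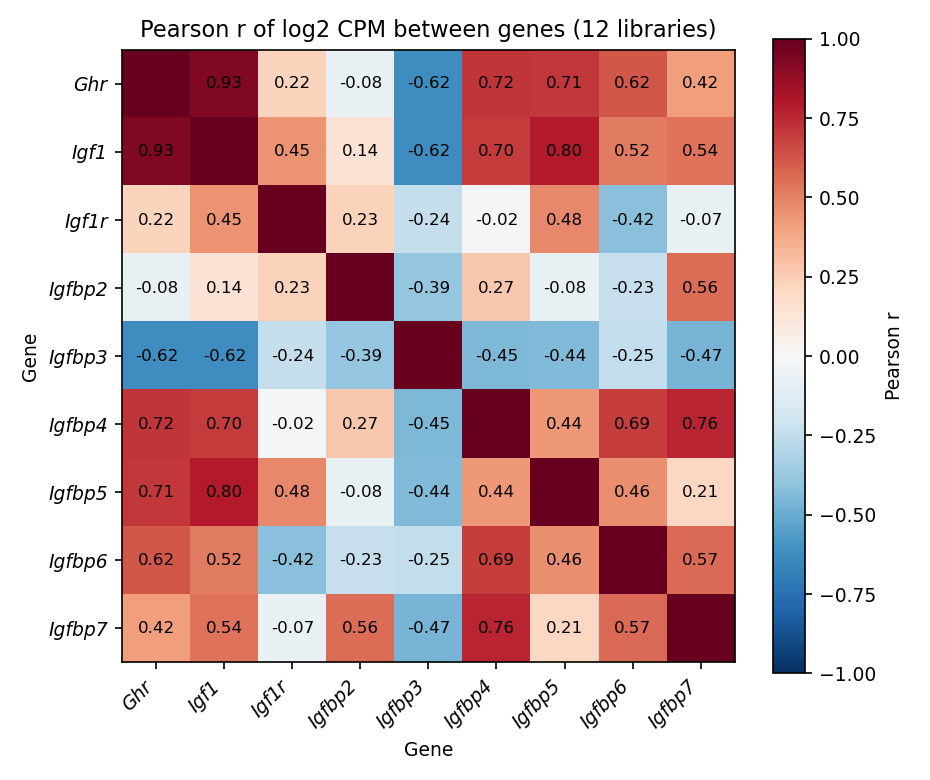
Pearson r of log2 CPM between each pair of the 9 genes over the 12 libraries, on a colour scale from -1 (blue) to 1 (red). Ghr and Igf1 form the closest pair at 0.925 (0.93 in its cell), and the Igfbp3 row is negative throughout.

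The genes whose pattern was most like each member's were named by Pearson r of log2 CPM over the 12 libraries, among 12808 genes with a mean of at least 1 CPM. For Ghr they were Abcd2 (r = 0.981), a peroxisomal fatty acid transporter, Lama4 (0.979), a laminin chain of fat and vessel basement membranes, and Pfkfb3 (0.977), a regulator of glycolysis. For Igf1 they included Hoxc8 (0.966), a homeobox factor, and Lamb1 (0.963), a laminin chain. Igfbp5 was most like Antxr1 (0.972), Pde3a (0.960) and Tnxb (0.959), a matrix glycoprotein, and Igfbp6 most like Olfml3 (0.982), Pf4 (0.958), a platelet chemokine, and Ogn (0.951), a small matrix proteoglycan. Igfbp4 was nearest to Kdelr2 (0.960), Arfgap3 (0.934) and Crtap (0.934), of which the first acts in retrieval to the endoplasmic reticulum and the last in collagen modification. Igf1r was nearest to Atf7 (0.964), Igsf9b (0.954) and Tmtc2 (0.952). The likeness was lower for Igfbp3 (Pdlim1 0.848, Cnnm4 0.833, Extl1 0.814), Igfbp7 (Rsu1 0.845, Lgals3bp 0.838, Rcn3 0.821) and Igfbp2 (Hmgxb4 0.811, Angpt2 0.798, Tbc1d2b 0.797).

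Of 59 other genes of the pathway, 51 were tested and none differed between the doses, where the background is again 0 genes. Their median log2 fold change was -0.039, with 22 higher and 29 lower at 5 mg/kg. The hormone genes Gh, Prl and Ghrh and the receptor genes Ghrhr and Ghsr were among the 8 left out, with 7 to 49 reads over all libraries. Igf2, the fetal growth factor, was nearly silent, with 0.197 ± 0.0797 CPM in the 5 mg/kg pads and 0.199 ± 0.115 CPM in the 1 mg/kg pads (SD, n = 6 per dose). The 4 STAT5 feedback genes Socs1, Socs2, Socs3 and Cish, which STAT5 induces and which damp cytokine receptors, all had negative estimates, and none passed. On the B cell level 3 of the 4 rose, as 22.3% of all genes did. Slopes were 0.28 for Socs1, 0.10 for Socs2 and 0.12 for Socs3 (adjusted p = 2.89e-05, 0.0411 and 0.0475 by edgeR), and Cish did not pass. That level averaged 2.6 ± 3.4 in the 5 mg/kg pads and 3.4 ± 3.6 in the 1 mg/kg pads (SD). Its part in the negative estimates was not tested. Socs2 ran from 7.16 through 9.95 to 19.3 CPM at 5 mg/kg, against 9.70, 16.4 and 26.5 CPM at 1 mg/kg, with an estimate of -0.58 ± 0.29 on the log2 scale (SE, unadjusted p = 0.0692, adjusted p = 0.943 by edgeR). Cish ran from 2.22 through 3.03 to 5.97 CPM at 5 mg/kg, against 2.83, 3.76 and 21.9 CPM at 1 mg/kg, and had -0.99 ± 0.52. The groups overlapped for both, and for Cish 1 library at 1 mg/kg stood far above the rest. The upstream signal genes had estimates of -0.31 ± 0.16 for Jak2, 0.062 ± 0.19 for Stat5a and -0.053 ± 0.13 for Stat5b.

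Along the fat level 16 of the 51 genes rose and 10 fell, beside the 17.0% and 23.3% of all genes given above. The risers with the smallest p were Eif4ebp1, a brake on translation downstream of the insulin and IGF1 receptors, at 0.92 ± 0.10 (SE, adjusted p = 0.000343 by edgeR), and Irs1, the docking protein of both receptors, at 0.93 ± 0.16 (adjusted p = 0.00136). Igfals, of the circulating IGF complex, rose by 0.84 ± 0.15 (adjusted p = 0.00159) and Ptpn11, a phosphatase of receptor signalling, by 0.38 ± 0.078 (adjusted p = 0.00305). Insr, the insulin receptor, rose by 0.49 ± 0.15 (adjusted p = 0.0237), Stat5a by 0.45 ± 0.13 (adjusted p = 0.0163) and Igf2r, which clears IGF2, by 0.30 ± 0.10 (adjusted p = 0.0323). Among the 10 that fell were Socs1 with a slope of -1.69 ± 0.30 (adjusted p = 0.00145) and Foxo1, a factor that insulin and IGF1 signalling restrain, with -0.66 ± 0.11 (adjusted p = 0.00145). Insrr, an insulin receptor relative, had -2.55 ± 0.47 (adjusted p = 0.00173), at a mean of only 0.669 CPM and as few as 3 reads in a library. The blood cell phosphatase gene Ptpn6 had -2.83 ± 0.54 (adjusted p = 0.00205). Jak2 fell with a slope of -0.41 ± 0.11 (adjusted p = 0.0103). These 5 genes all rose with the B cell level, as 22.3% of all genes did, with slopes from 0.075 for Jak2 (adjusted p = 0.000391) to 0.50 for Ptpn6 (adjusted p = 4.16e-08).

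Along the stroma level 7 of the 51 rose and 1 fell, beside 5.75% and 4.95% of all genes. Mmp3, a matrix protease that can cut IGF binding proteins, rose by 1.61 ± 0.24 (SE, adjusted p = 0.0103 by edgeR). Irs1 rose by 1.09 ± 0.22 (adjusted p = 0.0277), Igfals by 0.96 ± 0.23 (adjusted p = 0.0365) and Grb10, an adaptor that restrains both receptors, by 0.76 ± 0.19 (adjusted p = 0.0378). Insrr was the gene that fell, with a slope of -2.67 ± 0.72 (adjusted p = 0.0450), again resting on few reads. Of the genes that act on IGFBP4, the protease gene Pappa had 0.69 ± 0.31 (adjusted p = 0.127) and the gene of its inhibitor Stc2 had 0.85 ± 0.38 (adjusted p = 0.128), and neither passed. Stat5b, Socs2, Cish, Igf2 and Igf2r did not pass on the stroma level either.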

How the data were processed

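RNA of 12 mouse mammary fat pads was sequenced with a TruSeq v2 kit, which does not mark strand. The authors deposited raw counts per gene; per the submitters' processing notes the aligner was STAR, the counter HTSeq 0.6.1 and the build mm10. Not given in the sources used here were the STAR version and the annotation. The 5 tally rows, 16.7% to 35.7% of reads, were kept out of all tests and library sizes, and 8.30% to 10.5% of reads were set aside as aligned to more than 1 place. Symbols were matched for 55141 of 55487 IDs. Pairs of libraries within a dose differed by a chi-square of at least 41.7 per degree of freedom, beyond sampling noise. Depth was 48.2 to 75.3 M reads.

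Counts were tested with edgeR 4.0.16 in R 4.3.3 (filterByExpr, TMM, robust quasi-likelihood F-test; checked on simulated data). Values of p were adjusted by Benjamini-Hochberg over 18647 genes, with a threshold of 0.05. Dose was fitted alone, and each slope on a tissue level kept dose as a term. Standard errors come from the estimate and its F statistic, and intervals are 95%. CPM used TMM factors, log2 CPM a prior count of 2, and exon lengths are unions from GENCODE vM21 on GRCm38. Correlations used two-sided permutation tests with 100000 resamples (scipy 1.17.1), exact for 6 or 7 libraries. Promoters come from the RefSeq table for GRCm38.p6, which held all 9 genes. Alternatives were DESeq2 1.42.0, limma-voom (limma 3.58.1), other scalings, filters and covariates, split marker lists, and leaving out libraries.

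The 9 genes, the fat, stroma, endothelium, epithelium, B cell, macrophage and skeletal muscle markers and the pathway lists were chosen with earlier results of these data known. All 9 genes were named. Of the pathway lists 12 genes were to be named whatever their values, and for fat and stroma the 4 with the smallest p in each direction. The 3 genes most like each member exclude members, predicted models and segments of antibody or T cell receptor genes. Genes that these rules name but that are withheld are not reported here.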

Additional observations from a re-analysis of the deposited data

Results flagged for a closer look

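Igf1 in replicate 6 at 5 mg/kg stood apart from its group, at 190.8 CPM with the next library at 131.4 CPM. The gap was 0.657 of the group's range, above Dixon's 95% critical value for 6 samples. That library also had the highest stroma level of all, 7.18, a B cell level of -0.842 and 20.8% of reads on no gene feature. Their part in the value was not tested. The same check ran over 18 groups (9 genes at 2 doses), and chance alone marks about 1 group in 20.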

How the results depend on the processing

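No paired analysis was possible because the labels give no replicate numbers shared between the doses. The dose test called 0 genes under every alternative except DESeq2, which called 1; no member passed in any. With the fat level as a covariate the dose estimates turned to -0.084 for Ghr, -0.046 for Igf1 and -0.22 for Igfbp5. With the stroma level they turned to -0.16 for Ghr, -0.17 for Igf1, -0.0041 for Igfbp4, -0.30 for Igfbp5 and -0.035 for Igfbp7. Under scaling by library size alone they turned to -0.18 for Igfbp3 and -0.018 for Igfbp7. Single omissions moved the dose estimate across 0 for Igfbp2 (-0.25 to 0.015), Igfbp3 (-0.087 to 0.15) and Igfbp5 (-0.056 to 0.28). Leaving out replicates 5 and 6 at 1 mg/kg together, chosen after seeing the data as the lowest in stroma, gave -0.013 for Igf1 and -0.23 for Igfbp5.

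The fat slope called 27 genes under scaling by library size alone, 482 with the stroma level and 257 with the B cell level as a covariate, and 4090 without the pair of libraries just named, against 7511. For Igfbp2, which did not pass, the fat slope turned to 0.50 under library size, 0.17 with the B cell and 0.083 with the muscle covariate, and ran from -0.58 to 0.055 over single omissions. For Igf1r, which did not pass, it turned to -0.37 with the stroma and -0.67 with the B cell covariate, -0.068 without the dose term, -0.016 without the pair, and -0.028 to 0.16 over single omissions. Igfbp4 turned to -0.0086 and Igfbp7 to -0.13 with the stroma covariate, and Igfbp7 to -0.035 without the pair and -0.025 to 0.17 over single omissions. The fat slopes of Ghr, Igf1, Igfbp5 and Igfbp6 stayed positive, but passed in 21, 18, 11 and 16 of 24 alternatives, and fell as low as 0.34 for Ghr, 0.047 for Igf1, 0.098 for Igfbp5 and 0.57 for Igfbp6.

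The stroma slope called 70 genes under scaling by library size alone, where the median slope of all genes moved to 0.30, 5396 by DESeq2, 3172 by limma-voom, 971 without a filter, 3359 without the dose term and 560 with the muscle covariate, against 1995. With the fat or the B cell level as a covariate it called 3 each, with the odd-placed markers 10, with the even-placed markers 5750, without the pair 0, and over single omissions 36 to 3155. The stroma slopes of Ghr, Igf1 and Igfbp5 passed in 14, 15 and 12 of 24 alternatives. Those of Igfbp6 and Igfbp4, which did not pass in the main fit, passed in 5 and 2. The Igfbp2 stroma slope turned to -0.51 without the pair and ran from -0.15 to 0.34 over single omissions. The epithelium slope called 529 genes with the stroma and 494 with the B cell covariate, and 263 to 1426 over single omissions, against 848. The endothelium slope called 409 with the fat covariate, 0 with the stroma covariate, 0 with the B cell covariate and 1178 to 6719 over single omissions, against 5756. The B cell slope called 2092 with the fat and 2469 with the stroma covariate, against 7263. The cause of these shifts was not tested. Depth limits Igfbp2 most, with 38 reads in its thinnest library.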
